A study of Mus musculus with 2 samples.

Results

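Ccr2, a chemokine receptor, and the 4 chemokine genes Ccl2, Ccl7, Ccl8 and Ccl12 were followed through single-cell RNA libraries made from mouse tumour tissue after selection for CD45. They were chosen by symbol as the receptor that brings monocytes out of the bone marrow and a set of ligands known for attracting monocytes, and they are 5 of the 32285 genes in the count matrices. Chemokines are small secreted proteins that bind receptors on leukocytes and steer their movement along gradients. CCL2, CCL7 and CCL12 are textbook ligands of CCR2 in the mouse, whereas CCL8 is known in the mouse chiefly as a ligand of another receptor, CCR8. In tumours this system is known for the recruitment of Ly6C-positive blood monocytes, which lose CCR2 as they become macrophages and which, with fibroblasts and tumour cells, are themselves sources of the ligands.

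One library came from a group given cepharanthine (CEP), an alkaloid from Stephania plants, and 1 from a group given vehicle (Vehicle, whose title is spelled "Vehide"). Tumour tissue was digested with collagenase D and DNase I, and cells were enriched with an antibody to CD45, the surface protein shared by leukocytes. Each group is said to hold 5 biological replicates, yet no cell can be traced to an animal, so a group is 1 sample here. Mouse strain, sex, age, tumour model, dose and schedule are not given in the sources used here. No genetic alteration is named for either group.

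All levels below are UMIs (unique molecular identifiers, which count captured RNA molecules) of a gene per 1000000 UMIs of the cells summed, abbreviated CPM. Since a 3' library counts a molecule once whatever its length, CPM was compared between genes without a length correction, although capture may differ between transcripts. Intervals are 95% intervals for counting error only: they leave out the spread between animals, cells and library preparations, and no test between the groups was possible. The CEP library held 9621 barcodes and the Vehicle library 9989, with median depths of 6621 and 6236 UMIs. After filtering, 8842 and 9154 cells were kept. Both libraries shared 136 barcodes (1.41% and 1.36%). Of these, 48 had the same label in both libraries, either 1 of 5 cell gates or none of them. Leaving them out moved none of the macrophage ratios of the 5 genes beyond counting error.

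Cells were gated on raw UMIs of marker genes. Macrophages had at least 10 UMIs of the complement genes C1qa, C1qb and C1qc together (4162 CEP and 4564 Vehicle cells). Below 3 such UMIs, neutrophils had a UMI of Csf3r or Cxcr2 (1652 and 2103), and T cells had 2 UMIs of Cd3d, Cd3e and Cd3g (170 and 258). Below 10, dendritic cells had a UMI of Flt3 (91 and 94) and epithelial cells had 10 UMIs of the keratins Krt8 and Krt18 (780 and 111). The epithelial gate was 8.82% of kept CEP cells and 1.21% of Vehicle cells, although such cells should lack CD45. Further gates took in monocytes (2 or more Ly6c2 UMIs with low C1q, 181 and 134), fibroblasts (10 collagen UMIs, 42 and 16), endothelial cells (34 and 27), basophils or mast cells (37 and 17), plasmacytoid dendritic cells (8 and 10) and NK cells (40 and 36). In each of the macrophage, neutrophil, T, epithelial and fibroblast gates, all 6 of the marker genes listed for that type had a UMI in at least 10% of the cells of both libraries. In the dendritic gate this held for 5 of 6 in CEP and 6 of 6 in Vehicle.

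The 4 chemokine genes lie side by side on 1 strand within 81.2 kb of chromosome 11 (mm10), in the order Ccl2 (ENSMUSG00000035385, 82035571 to 82037453), Ccl7 (ENSMUSG00000035373, 82045712 to 82047525), Ccl12 (ENSMUSG00000035352, 82101845 to 82103400) and Ccl8 (ENSMUSG00000009185, 82115185 to 82116799). Ccr2 (ENSMUSG00000049103) is on chromosome 9 from 124101950 to 124113557. None of the 31-base stretches in the chemokine transcripts was shared with any of 46 other chemokine and chemokine receptor genes. For Ccr2 the share was 0% in the last 500 bases, where 3' reads fall. The RefSeq promoter table held 3 of the 5 genes (Ccl8, Ccl12 and Ccr2). The 250 bases before the start of Ccl8 (chr11:82114935-82115184) and of Ccl12 (chr11:82101595-82101844), both on the plus strand of GRCm38.p6, are shown because these were the 2 most abundant of the 5 genes in macrophages and differed in fibroblasts, where Ccl8 was well detected and Ccl12 was not. Capitals mark the TATA motif TATAAA.
Ccl8: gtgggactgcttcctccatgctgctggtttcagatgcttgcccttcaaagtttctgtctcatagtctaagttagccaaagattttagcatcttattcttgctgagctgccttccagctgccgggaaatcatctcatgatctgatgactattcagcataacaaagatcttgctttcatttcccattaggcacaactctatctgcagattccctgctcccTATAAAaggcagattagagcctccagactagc
Ccl12: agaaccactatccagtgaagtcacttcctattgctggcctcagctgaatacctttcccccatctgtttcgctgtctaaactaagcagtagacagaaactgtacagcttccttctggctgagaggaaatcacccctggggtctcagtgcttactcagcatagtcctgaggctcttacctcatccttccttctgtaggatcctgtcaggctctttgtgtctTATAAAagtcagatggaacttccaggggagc

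TATAAA began 32 bases before the start of Ccl8 and 31 before that of Ccl12, and it occurs in 12.4% of 32851 promoters of this length on either strand. On neither strand did these 2 windows hold an NF-kB pattern (GGG and CC with 5 bases between, in 45.8% of promoters), TGANTCA (AP-1, 6.75%), TTCNNNGAA (STAT, 7.02%), TTNNGNAA (C/EBP, 36.8%) or an interferon response core (GAAA and GAAA with 2 bases between, 2.98%). No overlap between motifs arose in them, since TATAAA was the only match. Aligned to each other, the windows matched at 150 of 270 columns (55.6%), and the longest run in common was 8 bases, ggaaatca, which began 128 bases before the start in both.

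Macrophages held most of the RNA of all 5 genes. With each cell counted once, the macrophage gate held 96.5% of Ccl12 UMIs in CEP and 97.3% in Vehicle, from 47.1% and 49.9% of the cells. Its share of Ccl8 was 89.2% and 94.2%, of Ccl7 77.1% and 85.1%, and of Ccr2 73.0% and 75.0%. Ccl2 was the gene whose sources differed most between the libraries: macrophages held 61.2% of its UMIs in CEP and 84.3% in Vehicle, and the epithelial gate 20.4% and 0.81%. Fibroblasts, at 0.33% and 0.12% of kept cells in this count, held 4.69% and 3.12% of Ccl7 and 2.93% and 0.70% of Ccl2. Cells of no gate held 14.7% and 14.2% of Ccr2.

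**Figure D1:**
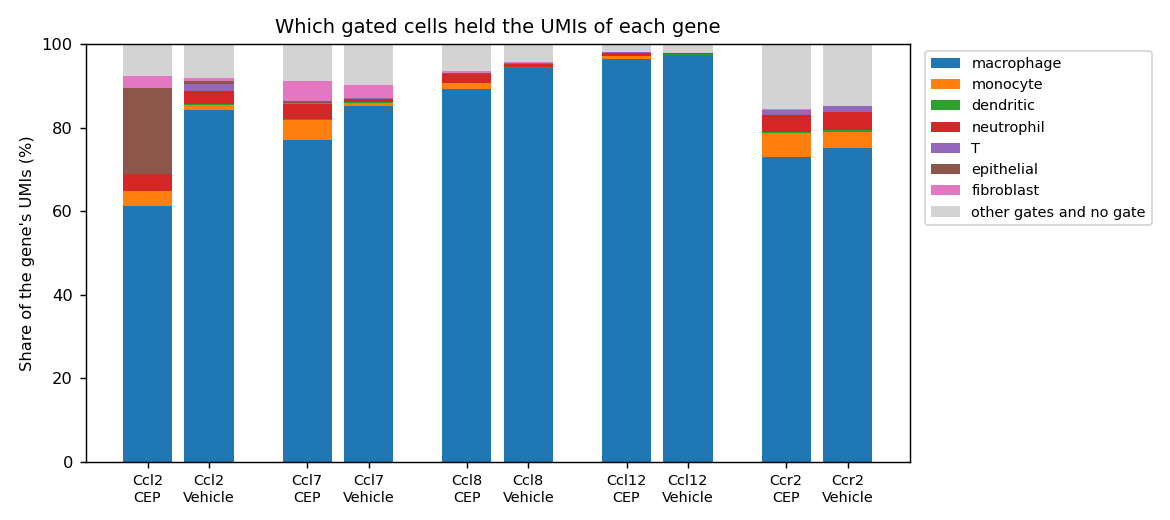
Share of each gene's UMIs (%, vertical axis) held by the cells of each gate in the CEP and Vehicle libraries, with each cell counted in 1 gate. Macrophages hold most of every bar, and the epithelial segment of Ccl2 is 20.4% in CEP and 0.81% in Vehicle.

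Each gene had its own order of levels over the cell gates. Ccl12, a ligand with no human gene of the same name, was the most restricted. Its macrophage level was 619 (612 to 627) CPM for CEP and 668 (661 to 675) CPM for Vehicle, against 80.0 and 74.6 CPM in the monocyte gate and 46.2 and 23.6 in neutrophils. In fibroblasts it came from 3 and 1 UMIs (3.31 CPM, 0.68 to 9.68, and 3.19 CPM, 0.081 to 17.8), and in epithelial cells it was at 0.91 and 0.31 CPM. Ccl12 was thus far higher in macrophages than in fibroblasts of the same library, with no overlap of the counting intervals.

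Macrophages of the CEP library had 615 (607 to 622) CPM of Ccl8 and those of the Vehicle library 692 (685 to 700), a level beside that of Ccl12. Unlike Ccl12, it also reached 219 (189 to 251) and 306 (248 to 374) CPM in fibroblasts. A Ccl8 UMI was found in 47.6% of the 42 CEP and 62.5% of the 16 Vehicle fibroblasts. Few of them set the level, as the top 5 cells held 82.8% and 90.6% of its fibroblast UMIs. Dendritic cells had 29.7 and 36.4 CPM, and epithelial cells had 3.05 and 0.63 CPM, from 67 and 2 UMIs.

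Ccl2 and Ccl7 had their highest levels in fibroblasts. CEP fibroblasts had 775 (718 to 834) CPM of Ccl7 and Vehicle fibroblasts 1526 (1392 to 1669), which is 4.19 and 8.03 times its macrophage level of 185 (181 to 189) and 190 (186 to 194) CPM. Ccl2 stood at 619 (569 to 673) and 910 (807 to 1022) CPM in fibroblasts, 3.22 and 4.28 times the 193 (188 to 197) and 213 (209 to 217) CPM of macrophages. The fibroblast mix of the 4 ligands was 48.0% Ccl7 and 38.3% Ccl2 in CEP and 55.6% and 33.1% in Vehicle, with Ccl12 at 0.205% and 0.12%. The macrophage mix was nearly the reverse, with 38.4% and 37.9% Ccl12, 38.1% and 39.3% Ccl8, 11.9% and 12.1% Ccl2 and 11.5% and 10.8% Ccl7. In CEP fibroblasts the top 5 cells held 51.9% of Ccl2 UMIs, and in the 16 Vehicle fibroblasts 96.8%. Of the 3 genes with at least 50 UMIs there, Ccl7 was lower in CEP by over 1.5-fold (log2 -0.98, -1.15 to -0.81), Ccl2 had a log2 ratio of -0.56 and Ccl8 of -0.49. In fibroblasts thinned to 1000 UMIs each, Ccl2 turned, to 1071 CPM in CEP and 812.5 in Vehicle, from 45 and 13 UMIs. Of all 3516 genes so measured in fibroblasts, 6.6% were lower by over 1.5-fold and 12.1% higher.

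**Figure D2:**
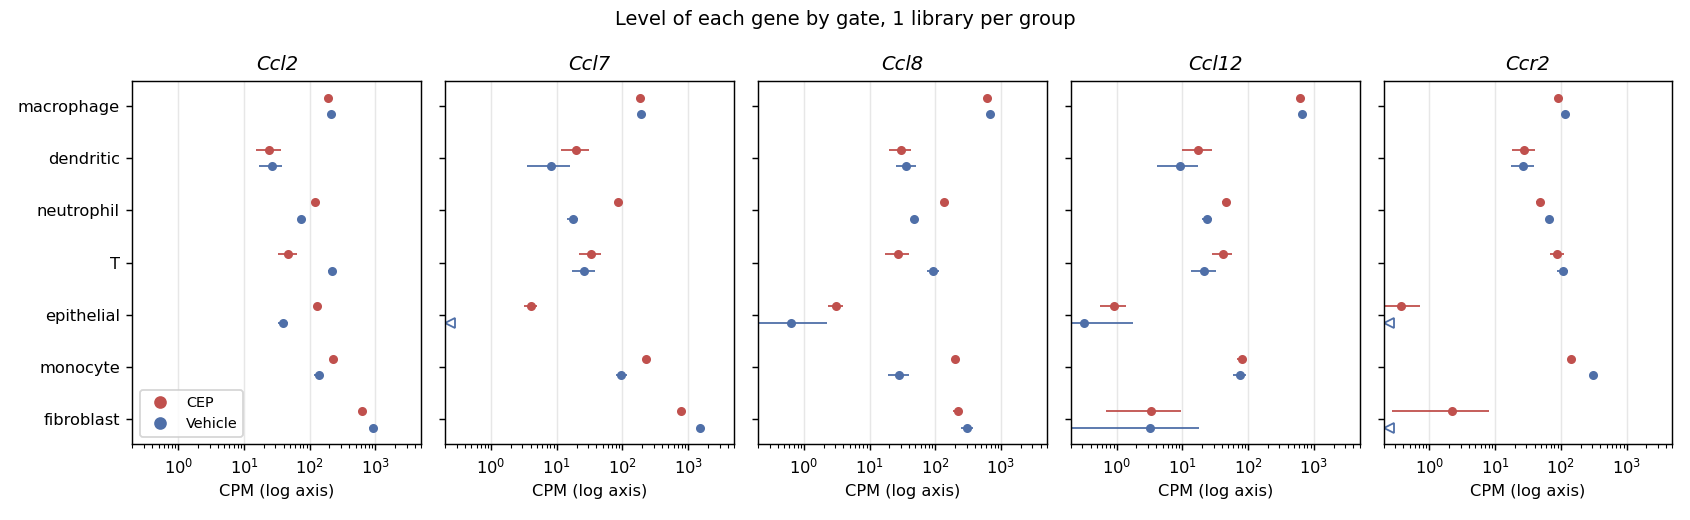
Level of each gene (CPM, log axis) in 7 gates of the CEP and Vehicle libraries, with 95% counting intervals as bars and open triangles at the left edge for a level of 0. Ccl12 is highest in macrophages, Ccl2 and Ccl7 are highest in fibroblasts, and Ccr2 is highest in the monocyte gate.

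Ccr2 RNA was highest in monocytes, the cells that the receptor is known to mobilise. For the monocyte gate the CEP library gave 143 (127 to 160) CPM and the Vehicle library 312 (280 to 348). Keratin RNA was mixed into this gate: 37 of 181 CEP and 8 of 134 Vehicle cells had at least 3 UMIs of Krt8 and Krt18, and these cells held 59.2% and 22.9% of the gate's UMIs. Monocytes in no other gate, with under 3 keratin and under 3 collagen UMIs, numbered 113 and 101. This narrower gate was chosen after the values were seen. Ccr2 reached 477 (422 to 537) CPM there in the CEP library and 492 (439 to 549) in the Vehicle library, with a UMI in 74.3% and 79.2% of cells.

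The other gates lay well below this narrower gate, although in CEP the endothelial level overlapped that of the whole monocyte gate. CEP levels ran through endothelial (138), plasmacytoid dendritic (106), NK (97.8), macrophage (90.8) and T cells (87.7), and the counting intervals of neighbours in that order overlapped. In Vehicle the endothelial level was 179 and the plasmacytoid dendritic level 167, followed by macrophages (118), T cells (106) and NK cells (105), again with overlapping intervals between neighbours. The endothelial gate also had 1718 and 920 CPM of summed macrophage markers. The NK gate had 604 and 350 CPM of summed dendritic markers, and the T gate 28304 and 42105 CPM of summed neutrophil markers. Of the plasmacytoid dendritic cells, 8 of 8 in CEP and 5 of 10 in Vehicle were also in a gate of the first 5. So were 9 of 40 and 10 of 36 NK cells. The part of this mixing in the Ccr2 levels was not tested. Neutrophils (47.5 and 66.8), dendritic cells (27.5 and 26.3), fibroblasts (2 and 0 UMIs) and epithelial cells (8 and 0 UMIs) were lowest. Of 111 Vehicle epithelial cells 0 had a Ccr2 UMI, which by a floor of 3 counts allows a share of cells with a UMI of up to 2.70% (exact upper limit 3.27%).

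Within T cells, Ccr2 was detected in 25.3% of CEP and 24.4% of Vehicle cells. Regulatory T cells, marked by Foxp3, had 177 and 210 CPM with a UMI in 53.6% and 40.5% of 28 and 42 cells. Gamma-delta T cells had 118 and 305 CPM, from 3 and 32 UMIs in 7 and 26 cells, and CD8 T cells 47.6 and 26.5 CPM. None of these 3 subsets had intervals of the CEP over Vehicle ratio that left 0. Dendritic subsets rested on few UMIs: Ccr2 was at 13.8 and 45.4 CPM in type 2 conventional dendritic cells (log2 -1.72, -3.33 to -0.34) and at 25.4 and 1.96 in type 1 (log2 3.69, 0.88 to 9.13), the latter from 10 UMIs in 4 cells and 1 UMI. In mature dendritic cells it was at 14.7 and 27.9 CPM, from 5 and 8 UMIs.

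In macrophages, where most of the RNA lay, the 5 genes differed little between CEP and Vehicle, and Ccr2 differed most. CEP macrophages had 90.8 (87.9 to 93.6) CPM of Ccr2 and Vehicle macrophages 118 (115 to 121), a log2 ratio of -0.37 (-0.43 to -0.32), and 1665 and 2134 of the cells had a UMI. Ccl8 had a log2 ratio of -0.17 (-0.19 to -0.15), Ccl2 of -0.14 (-0.19 to -0.10) and Ccl12 of -0.11 (-0.13 to -0.09). For Ccl7 the ratio was -0.038 (-0.080 to 0.0046), an interval that holds 0. None of the 5 passed 1.5-fold, a size that 4.44% of 12284 measured genes exceeded upward in CEP macrophages and 1.15% downward. The median log2 ratio over all of these genes was 0.02.

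The share of macrophages with a UMI was also slightly lower in CEP for all 5 genes, in cells of lower median depth (9737.5 against 10880 UMIs). Ccl2 was detected in 33.8% and 36.7%, Ccl7 in 26.8% and 28.8%, Ccl8 in 47.7% and 48.4%, and Ccl12 in 60.0% and 62.7%. With each cell thinned to 1000 UMIs, which left out 31 and 27 shallower cells, 8.21% (7.39 to 9.09%) of CEP macrophages and 10.8% (9.95 to 11.8%) of those in the Vehicle library had a Ccr2 UMI. For the ligands the thinned shares lay close together, with overlapping intervals: 11.5% and 12.5% for Ccl2, 9.63% and 10.2% for Ccl7, 22.7% and 21.7% for Ccl8, and 27.9% and 28.8% for Ccl12. For comparison, Ccl12 had a UMI in 2.18% and 0.90% of epithelial cells, which should lack it, at median depths of 26785.5 and 26694 UMIs.

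Over all kept cells Ccr2 stood at 68.8 and 117 CPM (log2 -0.76), a wider gap than in macrophages. Keratin-gated cells, with few UMIs of Ccr2 and much RNA per cell, were more frequent in CEP. Outside the epithelial gate Ccr2 was at 95.4 and 122 CPM (log2 -0.36, -0.41 to -0.31). For Ccl12 the log2 ratio was -0.53 over all cells and -0.12 outside that gate, for Ccl8 -0.52 and -0.12, for Ccl7 -0.32 and 0.07, and for Ccl2 -0.11 and -0.03.

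The ligands were carried by few macrophages. The 10% of macrophages with most UMIs of a gene held 84.3% of Ccl7 in CEP and 83.3% in Vehicle, 77.0% and 76.1% of Ccl2, and 75.6% and 78.8% of Ccl8. Ccl12 was spread more widely, at 61.9% and 61.6%, and Ccr2 most widely, at 50.2% and 48.4%. A single macrophage reached 311 Ccl8 UMIs in CEP and 482 in Vehicle, whereas the highest Ccr2 count in a macrophage was 15 and 29.

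Macrophages with genes of tissue-resident cells (at least 3 UMIs of Folr2, a folate receptor, Cbr2, a carbonyl reductase, and Cd163, a haemoglobin scavenger receptor) had the highest ligand levels and low Ccr2. They numbered 399 in CEP and 481 in Vehicle, 9.59% and 10.5% of macrophages, and held 39.9% and 50.3% of macrophage Ccl8 UMIs. Ccl8 stood at 2376 and 3098 CPM in them, 5.76 (5.62 to 5.91) and 8.0 (7.83 to 8.16) times the level in other macrophages. For Ccl7 the factor was 4.57 and 6.37, for Ccl2 2.73 and 3.51, and for Ccl12 1.88 and 2.49. Ccr2 went the other way, at 57.5 and 78.3 CPM, which is 0.608 (0.534 to 0.690) and 0.639 (0.580 to 0.702) of the level in other macrophages.

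All 5 genes were lower in the CEP library within these resident-like macrophages. Their log2 ratios were -0.39 for Ccl2 (446 and 582 CPM), -0.29 for Ccl7 (619 and 755), -0.38 for Ccl8, -0.41 for Ccl12 (1068 and 1423) and -0.44 for Ccr2. None passed 1.5-fold, against 1.93% of 9159 genes that were lower by that much and 2.58% that were higher.

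Cycling macrophages (at least 3 UMIs of the proliferation genes Mki67 and Top2a, 621 and 721 cells) had the widest CEP gap in Ccl2 and Ccl7 of the parts of the macrophage gate. Ccl2 was at 210 and 316 CPM there (log2 -0.59, -0.67 to -0.51) and Ccl7 at 129 and 204 CPM (log2 -0.66, -0.76 to -0.57). These 2 of the 5 genes passed 1.5-fold downward, as did 1.37% of 10529 genes, while 4.96% passed it upward. Ccl8 had a log2 ratio of -0.48, Ccl12 of -0.43 and Ccr2 of -0.45.

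Macrophages with monocyte markers (at least 3 UMIs of Ly6c2 and Plac8, 342 and 409 cells) had the highest Ccr2 of the macrophage parts, at 148 and 183 CPM, with a UMI in 65.5% and 66.7% of cells. There Ccl8 was lower in CEP, at 538 and 856 CPM (log2 -0.67, -0.74 to -0.60), past 1.5-fold as were 2.2% of 9094 genes (4.31% were higher by that much). Ccl2 (log2 0.22, 0.09 to 0.36) and Ccl7 (0.34, 0.20 to 0.48) had higher levels in CEP. The share of these cells with a UMI was not higher in CEP, at 38.6% and 44.0% for Ccl2 and 29.8% and 30.8% for Ccl7. Median depth was 10634 and 12679 UMIs. In macrophages with MHC class II genes (2677 and 3481) Ccr2 was at 101 and 126 CPM and in those with a UMI of Gpnmb (191 and 48), a lysosome-associated glycoprotein gene, at 33.9 and 31.6. Ccr2 was lower in CEP in 7 of these 8 overlapping parts, and the interval of the log2 ratio held 0 in the Gpnmb part (0.10, -0.66 to 0.93) and in cells of none of the other parts (-0.43, -1.04 to 0.18).

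**Figure D3:**
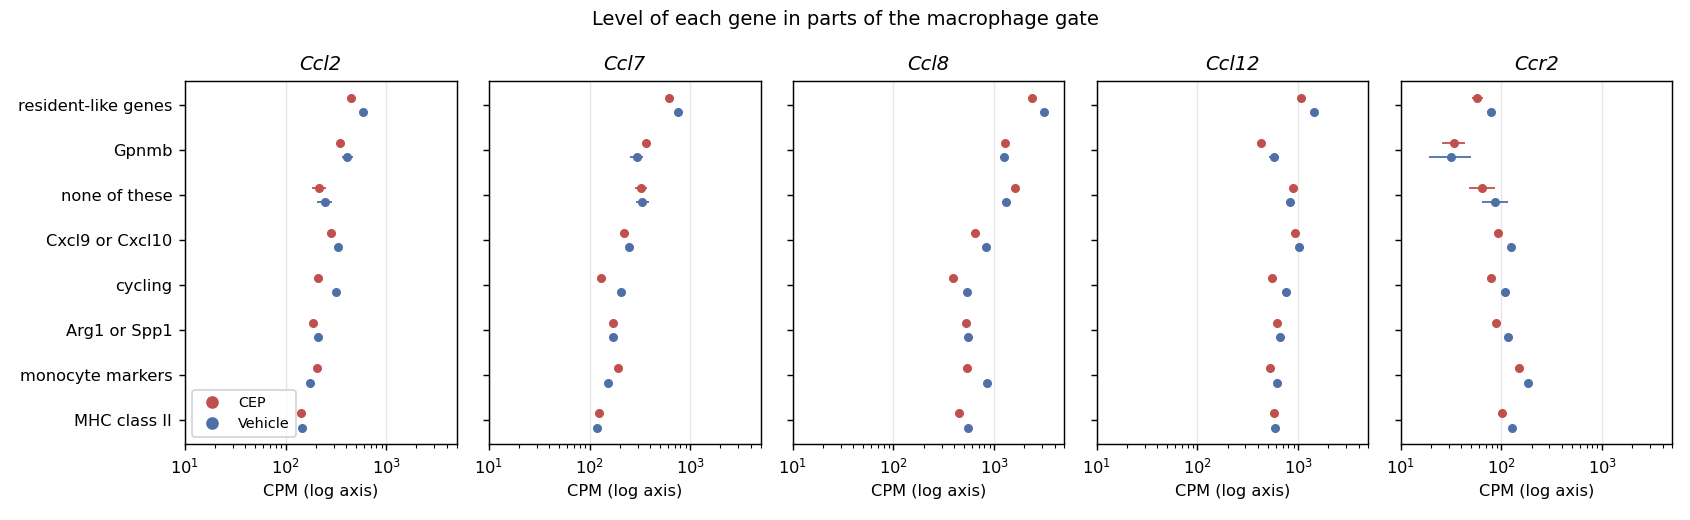
Level of each gene (CPM, log axis) in 8 overlapping parts of the macrophage gate, with 95% counting intervals. In both libraries the 4 ligands are highest in cells with resident-like genes, and Ccr2 is highest in cells with monocyte markers.

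Macrophages were also split into 3 bins by C1q level, at cuts set over both libraries together. In the lowest bin Ccl2, Ccl7, Ccl8 and Ccl12 had log2 ratios of -0.27, -0.29, -0.25 and -0.30. In the highest bin they were 0.11, 0.23, -0.023 and 0.028, so that Ccl2 and Ccl7 turned to higher in CEP while the intervals of Ccl8 and Ccl12 held 0. Ccr2 was lower in CEP in every bin, at -0.49, -0.33 and -0.33 from low to high C1q. Ccl8 stood at 481 and 571 CPM in the lowest bin, 454 and 507 in the middle and 942 and 957 in the highest.

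Ccl2 and Ccl7 were often found in the same macrophages, whereas Ccr2 was weakly and mostly inversely related to the ligands. Ccl7 had a UMI in 56.8% of CEP and 57.6% of Vehicle macrophages with a Ccl2 UMI, and in 11.5% and 12.1% of those without. Pearson's r of the log2 levels across 4162 CEP and 4564 Vehicle macrophages was 0.64 and 0.65 for this pair. It was 0.43 and 0.47 for Ccl2 with Ccl12, 0.33 and 0.35 for Ccl7 with Ccl8, and 0.18 and 0.23 for Ccl2 with Ccl8. For Ccr2 it was -0.19 and -0.17 with Ccl8 and between -0.10 and -0.053 with the other ligands, and in CEP Ccr2 was found in slightly more cells with a Ccl12 UMI (41.1%) than without (38.4%). These coefficients describe cells that share a library and differ in depth. Ccl2-positive cells, for instance, had median depths of 11263 and 12539 UMIs against 9006 and 10124 in the cells without a Ccl2 UMI.

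Macrophages with all 4 ligands detected were 11.6% in CEP and 12.9% in Vehicle, and they held 41.2% and 46.4% of the ligands' UMIs. Those with none were 21.6% and 19.3%. From 0 to 4 ligands detected, the Ccr2 level went from 119 through 101, 88.3 and 77.8 to 54.0 CPM in CEP and from 152 through 134, 112 and 105 to 77.7 CPM in Vehicle. Median depth rose over the same steps, from 8257 to 11677 UMIs and from 9138 to 12818, so that the fall in Ccr2 came in deeper cells.

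**Figure D4:**
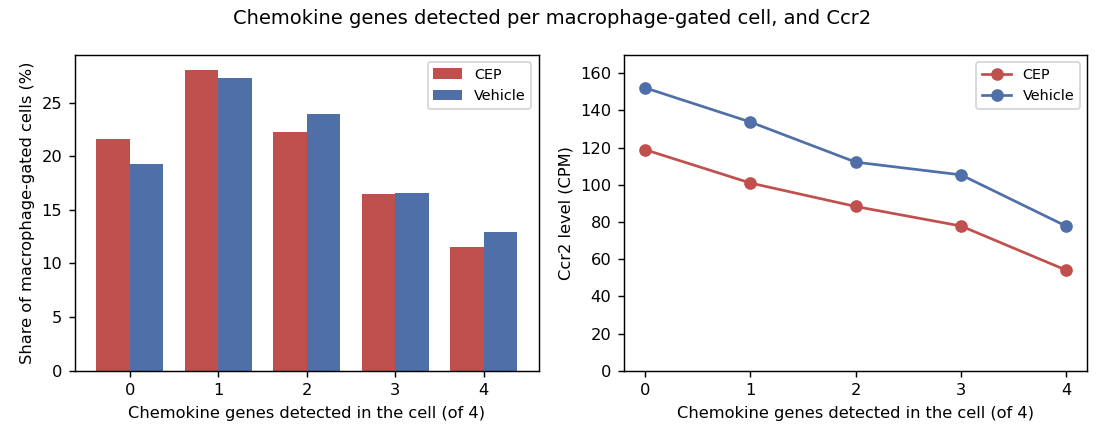
Left, share of macrophage-gated cells (%) by the number of the 4 ligand genes with a UMI; right, Ccr2 level (CPM) of the same cells. Ccr2 falls from 119 to 54.0 CPM in CEP and from 152 to 77.7 CPM in Vehicle as more ligands are detected.

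Among 8754 genes found in at least 5% of macrophages, the gene most like Ccl2 was Ccl7 and the gene most like Ccl7 was Ccl2. After its cluster neighbours, Ccl2 was most like Ch25h, cholesterol 25-hydroxylase (r 0.32 in CEP and 0.35 in Vehicle), Ccl3 and Ccl4. Ccl12 followed Ccl2, Ccl7, Ch25h (0.35 and 0.36), Ccnd1 and Msr1. Ccl7 was also like Cbr2 (0.36 and 0.39) and Folr2, and Ccl8 was most like Folr2 (0.39 and 0.43), Selenop, Fcgrt, Wfdc17 and Ms4a7. The genes most like Ccr2 were Tgfbi, which encodes a matrix protein (0.20 and 0.23), the MHC class II peptide-loading genes H2-DMa and H2-DMb1, Alox5ap and Tmem176b. Folr2 and Cbr2 also served to pick the resident-like cells.

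In epithelial cells the ligand RNA was nearly all Ccl2, which was higher in CEP. Ccl2 made up 94.2% of the 4 ligands' UMIs there in CEP and 97.7% in Vehicle. The 2858 UMIs of the CEP library gave 130 (125 to 135) CPM and the 127 of the Vehicle library 39.8 (33.2 to 47.4), which is 1.71 (1.45 to 1.98) on the log2 scale. A UMI was found in 171 of 780 CEP cells (21.9%, 19.1 to 25.0%) and 13 of 111 Vehicle cells (11.7%, 6.39 to 19.2%) at nearly equal median depth. All 3 ligands with at least 50 UMIs in this gate were over 1.5-fold higher, against 3.9% of 10733 genes that were higher and 3.94% that were lower. Ccl7 and Ccl8 reached 50 UMIs only through CEP, where they were high and where the gate held 21973041 UMIs against 3191041 in Vehicle. The count of 3 therefore cannot be read as a result about the ligands as a set. Ccl8 had 67 and 2 UMIs, and Ccl7 had 88 and 0 UMIs, at least 4.26-fold higher against a floor of 3 UMIs (the counting interval of the log2 ratio starts at 1.76).

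Few cells set the Vehicle level. The top 5 cells held 78.0% of Ccl2 UMIs in Vehicle and 26.7% in CEP. Without them the levels were 96.1 CPM in CEP and 9.37 in Vehicle (log2 3.36). This step took out 5 of 13 positive Vehicle cells but 5 of 171 positive CEP cells. It therefore lowers the Vehicle level more, and the higher ratio cannot show how stable the difference is. With doublets kept, 133 and 70.0 CPM gave a log2 ratio of 0.92, and in cells thinned to 1000 UMIs it was 0.98 (-0.12 to 2.33) from 97 and 7 UMIs. With doublets kept Ccl7 turned, to 119 CEP and 39 Vehicle UMIs and a log2 ratio of -1.0 (-1.53 to -0.44).

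Macrophage and fibroblast RNA was low in the epithelial gate. Summed macrophage markers stood at 22.7 CPM in CEP and 30.7 in Vehicle, against 17212 and 17214 in macrophages, and fibroblast markers at 41.3 and 17.2 against 26182 and 29101. Apoe, the most abundant macrophage marker, was at 0.088% and 0.12% of its macrophage level, while Ccl2 was at 67.6% and 18.7%. In the 603 CEP and 78 Vehicle epithelial cells with no C1q and no collagen UMI, a gate chosen after the values were seen, Ccl2 was at 145 and 41.7 CPM (log2 1.80, 1.49 to 2.12, and 0.72 with doublets kept). The interval of Ccl8 held 0 in these cells, from 27 and 2 UMIs (log2 0.76, -1.23 to 3.88). Ccl7 had 40 and 0 UMIs, and 43 and 39 with doublets kept (log2 -2.67). Over the whole epithelial gate, Ccl2 was higher in CEP in cycling cells (132 and 41.9 CPM) and in cells that did not cycle (129 and 38.7 CPM). The genes most like Ccl2 there, sought after the values were seen, were Csf3 (r 0.34 in 780 CEP and 0.30 in 111 Vehicle cells), Tnfaip3, Cxcl1, Cxcl2 and Fosl1, which encode a granulocyte growth factor, an NF-kB inhibitor, neutrophil chemokines and an AP-1 subunit.

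Monocytes carried more ligand RNA in CEP at nearly the same Ccr2. In the narrower gate of 113 and 101 cells, the log2 ratio of Ccr2 was -0.044 (-0.28 to 0.19). The CEP library had 472 (417 to 531) CPM of Ccl7 and the Vehicle library 13.8 (6.32 to 26.3), with a UMI in 29.2% (21.0 to 38.5%) and 5.94% (2.21 to 12.5%) of cells and a log2 ratio of 5.09 (4.15 to 6.24). Ccl8 was at 689 and 30.7 CPM (log2 4.49, 3.84 to 5.21), of which the 5 highest cells carried most, since 141 and 9.65 CPM were left without them. For this gene a UMI was found in only 15.9% and 10.9% of cells with overlapping intervals. Ccl2 was at 559 and 220 CPM (log2 1.35, 1.06 to 1.64) and Ccl12 at 258 and 117 (log2 1.14, 0.73 to 1.56). So 4 of the 5 genes were over 1.5-fold higher in CEP, against 7.73% of 3197 genes that were higher and 5.41% that were lower. Ccl7 (271 CEP and 9 Vehicle UMIs) and Ccl8 (396 and 20) reached the UMI minimum for a measured gene only through CEP. The gate itself was chosen after the values were seen. The count of 4 therefore cannot be read as a result about the ligands as a set.

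Without the 5 cells of each library with most UMIs, these log2 ratios were 2.35 for Ccl2, 7.13 for Ccl7 (125 and 1 UMIs), 3.87 for Ccl8 and 2.34 for Ccl12. For Ccl7 this step took out 5 of 33 positive CEP cells but 5 of 6 positive Vehicle cells. For Ccl2 there were 54 and 22 positive cells, and for Ccl12 36 and 21. The step took a larger share of the positive Vehicle cells, so the higher ratios cannot show how stable the differences are. With doublets kept Ccl7 was at 3.75, and in cells thinned to 1000 UMIs Ccl12 was at 0.76 (-0.082 to 1.64). Macrophage markers differed in these monocytes along with the ligands: Ms4a7 was at 392 CPM in CEP and 81.4 in Vehicle and Trem2 at 320 and 131, while Apoe was at 2965 and 3134 and Csf1r at 350 and 432. Their part in the ligand levels was not tested. Of the monocyte markers, Plac8 was at 2465 and 3401 CPM and Ly6c2 at 1078 and 713, and the neutrophil and monocyte gene S100a8 was at 242 and 1277. The collagen gene Col3a1 and the fibroblast marker Dcn had no UMI in either library. In the whole monocyte gate, where keratin-rich cells held much of the RNA, Ccr2 had a log2 ratio of -1.13 (-1.36 to -0.90), past 1.5-fold as were 13.7% of 6809 genes in that direction. Ccl2 was at 0.71, Ccl7 at 1.27 and Ccl8 at 2.86 there, past 1.5-fold as were 20.1% of genes, and Ccl12 at 0.10 (-0.29 to 0.50).

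The neutrophil gate had low ligand levels that were set by few cells. Ccl7 was at 85.9 and 17.4 CPM (log2 2.31, 1.98 to 2.64), Ccl8 at 138 and 47.8 (1.53), Ccl12 at 46.2 and 23.6 (0.97) and Ccl2 at 120 and 74.8 (0.69). These 4 of 5 genes were over 1.5-fold higher in CEP, but so were 18.2% of 8011 genes, while 2.06% were lower. The top 5 of 1652 CEP cells held 74.7% of Ccl8, 54.3% of Ccl7, 49.0% of Ccl12 and 48.9% of Ccl2 UMIs, and for none of the 4 was a UMI found in a larger share of CEP cells beyond counting error. The share of neutrophils with a Ccl8 UMI was 6.42% for CEP and 9.60% for Vehicle. Summed fibroblast markers were at 1171 CPM in CEP and 9.13 in Vehicle neutrophils, and Ms4a7 was at 48.6 and 12.2. Their part in these ratios was not tested.

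A narrower gate, chosen after the values were seen and redrawn once since, held neutrophils with at least 20 UMIs of S100a8 and S100a9, no UMI of Ly6c2, Csf1r or Ms4a7 and few of collagen and keratin (1100 and 1423 cells). With the S100 limit alone, Ccl2 was at 86.3 and 48.9 CPM (log2 0.82) and Ccl7 had a log2 ratio of 1.86. In the narrower gate Ccl2 was at 73.6 and 54.9 CPM (0.42, 0.11 to 0.74) and Ccl7 at 43.9 and 11.3 (1.96, 1.40 to 2.55). Of the 4 ligands, all with at least 50 UMIs there, only Ccl7 passed 1.5-fold, upward, as did 2.51% of 5424 genes, while 3.39% passed it downward. Ccl8, with 104 and 164 UMIs (log2 -0.12, -0.48 to 0.25), and Ccl12, with 45 and 63 UMIs (0.056, -0.53 to 0.63), had intervals of the ratio that held 0. A UMI of Ccl2 was nevertheless found in fewer of the CEP cells, 3.64% against 6.54%. Few cells set these levels too: without the 5 highest cells of each library the log2 ratio of Ccl2 was -0.95 (-1.46 to -0.46), and that of Ccl7 was -0.99 (-2.19 to 0.088) from 10 and 29 UMIs. Ccl2 was positive in 40 CEP and 93 Vehicle cells, and Ccl7 in 15 and 34. Taking out 5 cells thus removed a larger share of the positive CEP cells, and the lower ratios cannot show which direction holds. With each cell's CPM averaged, Ccl2 was at -0.53 and Ccl7 at 0.34. In cells thinned to 1000 UMIs they were at -0.54 (-1.12 to 0.021) and 0.74 (-0.37 to 1.87), and with doublets kept at 0.56 and 2.03. In the whole neutrophil gate, leaving out 5 cells in the same way turned Ccl8 to -0.31, while Ccl2 stayed at 0.49, Ccl7 at 2.08 and Ccl12 at 0.54. Ccr2 had 22 and 14 UMIs in the narrower gate (9.75 and 4.27 CPM), whereas neutrophil-gated cells with under 20 S100 UMIs had 175 and 327 CPM. Those cells held 139 of the gate's 214 Ccr2 UMIs in CEP and 309 of 373 in Vehicle.

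T and dendritic cells had too few ligand UMIs for firm statements. Ccl2 in T cells was at 46.8 and 220 CPM (log2 -2.23), but 3 of 258 Vehicle cells held 94.2% of the Vehicle UMIs, a UMI was found in 9 cells of each library, and without the 5 highest cells the log2 ratio was 0.29. In T cells of no other gate (140 and 214) it was -0.46 (-1.46 to 0.49). Summed fibroblast markers were at 399 and 998 CPM in the T gate. Summed neutrophil markers were at 28304 and 42105 CPM there, beside 1257 and 1147 CPM of T cell markers. The part of either in these values was not tested. Ccl8 was at 26.9 and 93.4 CPM there (log2 -1.80, -2.52 to -1.13) and Ccl12 at 40.9 and 21.4 (0.94, 0.13 to 1.78), a direction that 4 of 9 alternatives reversed. Over 1.5-fold, 6.17% of 4810 genes in T cells were lower and 5.9% higher in CEP. Dendritic cells had between 8.09 and 36.4 CPM of any of the 5 genes. Of Ccl8 and Ccr2, the 2 with at least 50 UMIs there, neither passed 1.5-fold, against 4.75% of 4594 genes that were higher and 4.35% that were lower. Basophils or mast cells, a gate of 37 and 17 cells in which summed fibroblast markers reached 1410 and 12834 CPM, had 172 and 427 CPM of Ccl2 and 162 and 647 of Ccl7. The part of fibroblast RNA in those values was not tested.

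**Figure D5:**
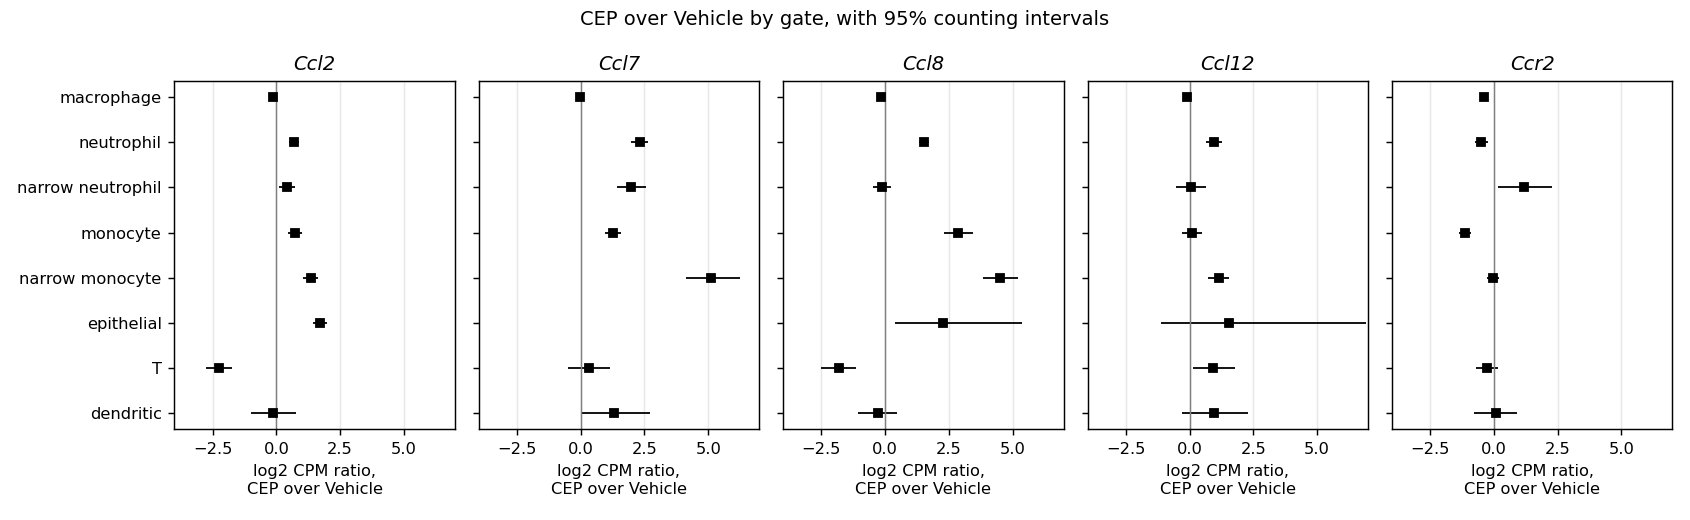
Log2 CPM ratio of CEP over Vehicle for each gene in 8 gates, with 95% counting intervals and only where a gene had at least 20 UMIs over both libraries and UMIs in each. Ratios in macrophages lie between -0.37 and -0.038, the ligands are higher in CEP in the narrow monocyte gate, and in the narrow neutrophil gate Ccl2 and Ccl7 lie above 0 while the intervals of Ccl8 and Ccl12 hold it. Without the 5 highest cells of each library, Ccl2 and Ccl7 in the narrow neutrophil gate turn to -0.95 and -0.99. That step takes out a larger share of the positive cells in CEP than in Vehicle.

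Other genes of monocyte traffic differed little in macrophages. Of a list of 35 ligands, receptors, adhesion molecules and monocyte markers, 31 had at least 50 UMIs, 3 were over 1.5-fold higher in CEP and 0 lower, against 4.44% and 1.15% of all 12284 genes. The list median was 0.02, the same as that of all genes. The 3 were the fractalkine ligand Cx3cl1 (2.12 and 0.647 CPM, log2 1.71), the monocyte marker Ly6c2 (10.5 and 5.90 CPM, 0.84) and Chil3 (2.30 and 1.10 CPM, 1.06), all at low levels. Csf1, the macrophage growth factor, was at 44.9 and 31.6 CPM (0.51, 0.41 to 0.60) and the integrin chain Itgb2 at 238 and 274 (-0.21). A further list of 14 genes held those known to induce these chemokines or to carry the signal, and the NF-kB inhibitor Tnfaip3. Of these 14, 0 were higher and 1 lower by 1.5-fold, beside the same 4.44% and 1.15% of all genes, with a median of 0.02. That 1 was Ifng, which encodes interferon gamma (0.437 and 1.33 CPM, log2 -1.61). Rela, an NF-kB subunit, had a log2 ratio of 0.24 and Jun, an AP-1 subunit, of 0.30.

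In epithelial cells 11 of the 14 genes on this list were measured, and 9 lay above 0, the inhibitor gene Tnfaip3 among them. The list median was 0.48 against -0.03 for all 10733 genes. Il1a passed 1.5-fold upward (33.0 and 18.5 CPM, log2 0.84) and Tnf downward (19.0 and 32.0 CPM, -0.75), as did 3.9% and 3.94% of all genes there. Tnfaip3 was at 247 and 175 CPM (0.49) and Nfkb1 at 94.4 and 65.2 (0.53). In the monocyte gate 19 of 29 measured traffic genes were over 1.5-fold lower in CEP and 3 higher (Csf1, Cx3cl1 and Nup85), against 13.7% and 20.1% of 6809 genes, with a median of -1.07 against 0.11 for all genes, in the gate where keratin-rich cells held 59.2% and 22.9% of the UMIs.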

How the data were processed

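Per the file headers, the authors deposited raw UMI counts per gene and cell barcode for 2 libraries, with no normalization. The submitters' processing notes name Cell Ranger 5.0.1 and the mm10 build, but version 7.1.0 stands in the file headers. The treatment of intronic reads is not given here. The lowest depth of a deposited barcode was 500 UMIs. Cells needed 200 detected genes or more and a mitochondrial share of no more than 15% (77 CEP and 57 Vehicle barcodes failed). Scrublet in scanpy 1.11.5 marked 1 cell per library at its automatic threshold (0.0105% and 0.0101%), too few to have worked, so the cells of the highest 8% of scores were removed (702 and 778). Gates were set on raw UMIs and a cell could be in more than 1, except for the shares of UMIs by source, where it was assigned in a fixed order with macrophages first.

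Counts were summed per gate and library (Python 3.11.15, numpy 2.4.6, scipy 1.17.1, pandas 2.3.3) and given as CPM with exact Poisson intervals, ratios with exact conditional binomial intervals, and shares with exact Clopper-Pearson intervals. Gate sums were 43468646 and 52577769 UMIs in macrophages but 313259 in Vehicle fibroblasts, so counting error is smallest in macrophages. The ratio script was tested on simulated data. Genes with at least 50 UMIs over both libraries in a gate were measured, and 0.5 UMI was added to each sum for counts of genes past 1.5-fold.

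The members, gates and lists were chosen with earlier results of these data known. Named were the 5 members, list genes past 1.5-fold in macrophages, and the 5 genes with the highest lower r of log2(UMIs per 10000 + 1) with a member. Csf1, Itgb2, Rela, Jun, the epithelial genes and the marker genes were named after their values were seen. Some genes are not reported here. The narrow neutrophil gate first also required no UMI of 1 further gene that is not reported. Dropping that gene turned Ccl2 there from lower to higher in CEP. Alternatives varied the doublet and cell filters, averaging, thinning, scaling, gates and single cells.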

Additional observations from a re-analysis of the deposited data

Results flagged for a closer look

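In 8 cases a ligand was lower in CEP macrophages and higher in CEP in another gate, with counting intervals on opposite sides of 0. The difference between the gates was not tested in any of them. Of all measured genes, 18.2% were over 1.5-fold higher in CEP in neutrophils and 20.1% in the monocyte gate. The share was 3.9% in epithelial cells and 5.9% in T cells. Ccl2 had log2 ratios of 1.71 in epithelial cells, 0.71 in the monocyte gate and 0.69 in neutrophils, against -0.14 in macrophages. Ccl8 had 2.86 in the monocyte gate, 2.28 in epithelial cells (67 and 2 UMIs) and 1.53 in neutrophils, against -0.17. Keratin-rich cells held 59.2% of the monocyte gate's UMIs in CEP and 22.9% in Vehicle. In the whole neutrophil gate Ccl2 was at -0.019 with averaged CPM, and Ccl8 at -0.31 without the 5 highest cells of each library. In epithelial cells with no C1q and no collagen UMI, the value of Ccl8 was 0.76 (-1.23 to 3.88). Ccl12 had 0.97 in neutrophils and 0.94 in T cells (35 and 22 UMIs), against -0.11, but 4 of 9 alternatives reversed the T cell value, down to -1.25. In the narrower neutrophil gate, which required no UMI of Ly6c2, Csf1r or Ms4a7, the values were 0.42 for Ccl2, -0.12 for Ccl8 and 0.056 for Ccl12. Without the 5 highest cells of each library Ccl2 was at -0.95 there, a step that took out a larger share of the positive CEP cells.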

How the results depend on the processing

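In macrophages all 5 log2 ratios stayed below 0 under each of the 12 alternatives, 2 of which (without shared barcodes, without cells with a Gpnmb UMI) were chosen after seeing the data. Ranges were -0.18 to -0.093 for Ccl2, -0.090 to -0.021 for Ccl7, -0.23 to -0.092 for Ccl8, -0.13 to -0.039 for Ccl12 and -0.47 to -0.35 for Ccr2. Values that moved beyond counting error were, with doublets kept and likewise with all deposited barcodes, Ccl2 at -0.093 and Ccl8 at -0.14; in cells thinned to 1000 UMIs, Ccl2 at -0.10, Ccl8 at -0.092, Ccl12 at -0.039 and Ccr2 at -0.47; with each cell's CPM averaged, Ccl8 at -0.10 and Ccl12 at -0.080; with at least 30 C1q UMIs, Ccl12 at -0.075; and without cells with a Gpnmb UMI, Ccl7 at -0.090 and Ccl8 at -0.23. The cause was not tested. Of 199 alternatives in the 5 other gates, 142 stayed within counting error, 48 moved and 9 reversed. Only ratios past 1.5-fold could count as reversed, so sign changes of smaller ratios are among the other counts. Ccl2 in dendritic cells, for instance, went from -0.12 up to 2.02, and Ccl7 in T cells from 0.32 down to -0.59. Genes with no UMI in 1 library of a gate, such as Ccl7 in epithelial cells, were left out. Reversed with averaged CPM were Ccl2 in neutrophils (-0.019), Ccl7 (-0.18) and Ccl12 (-0.57) in dendritic cells and Ccl12 in T cells (-0.26). Reversed without the 5 highest cells were Ccl2 in T cells (0.29), Ccl8 in neutrophils (-0.31) and Ccl12 in T cells (-0.98), the last also in thinned cells (-1.25) and exclusive gates (-0.051). Genes past 1.5-fold in macrophages numbered 546 higher and 141 lower. With at least 10 UMIs there were 1336 and 509, with 200 UMIs 174 and 37, at a lower fold threshold 1115 and 576, and at 2-fold 304 and 41. No paired analysis was possible because each group is 1 library. Single cells cannot stand in for animals, and levels under about 1 CPM rest on a few UMIs.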
